A study of Mus musculus with 6 samples.

Results

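The genes described here encode hydrolases of the lysosome, proteins of its membrane and the transcription factors that control them, as expressed in immortalized mouse fibroblasts. They were chosen by name as 41 genes: 9 papain-like cysteine cathepsins, legumain, 3 aspartic and serine proteases, 8 glycosidases, 5 sulfatases, 4 enzymes or activators acting on lipids and lipid-modified proteins, 7 membrane proteins, progranulin and the 3 factors TFEB, TFE3 and MITF. Of these, 40 were found among the 19078 genes of the table, 38 under the given symbol and 2 under an older symbol (*Tfeb* as Tcfeb and *Tfe3* as Tcfe3). No value was found for *Ctsc*, which was therefore not analysed here.

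Poly(A)-selected RNA was sequenced from 3 libraries of *Ms4a15* OE cells and 3 libraries of control cells. The cells (MF) are an immortalized line of mouse embryonic fibroblasts in which *Gpx4* can be deleted through Cre-ERt2, and both groups share this background. The OE cells are a pool that received an activating CRISPR guide for *Ms4a15* by lentivirus and was selected with G418. The methods name the CRISPR activation system for the MF line and G418 selection for cell pools, without stating either separately for the controls. The labels give the controls as wild type and the design text as parental, whereas the methods describe cells infected with empty lentivirus. No treatment is given for either group, and the labels do not say whether the 3 libraries of a group came from separate cultures.

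The value used for each gene was the authors' mean over all 6 libraries of the read count divided by a size factor, referred to as the mean normalised count. Levels of the *Ms4a15* OE and control cells were not analysed separately here, so no difference between the groups, no spread between libraries and no test is given, and every comparison below is a description of this line as a whole. *Ms4a15*, the targeted gene, had a mean normalised count of 637.5 over both groups, which does not check the labels. The means of all genes summed to 40991755. Genes with a single read in a single library gave size factors of 0.887 to 1.14 for the 6 libraries, so the deepest library was 1.28 times as deep as the shallowest on this scale. The lowest mean of all genes was 0.147, that of 1 read in 1 library. A gene without any read would therefore have no value, and medians of gene lists are over the genes with a value.

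Lysosomes break down proteins, glycans and lipids in an acid lumen. Most of their soluble hydrolases are made in the endoplasmic reticulum, tagged with mannose 6-phosphate and carried to the lysosome, where proteases such as the cathepsins are activated by cleavage. The membrane is lined by heavily glycosylated proteins such as LAMP1 and LAMP2, and TFEB, TFE3 and MITF bind E-box motifs in the promoters of many of these genes.

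Transcripts of many lysosomal genes were abundant in the fibroblasts. The median of the 40 genes was 1564.6 normalised counts, against 237 for all 19078 genes, and 28 of the 40 lay above the median of all genes. A mean of at least 1000 was reached by 22 of the 40 (55.0%), compared with 35.0% of all genes. A mean of at least 10000 was reached by 8 of the 40 (20.0%), compared with 4.20% of all genes. The 8 genes were *Ctsl*, *Lamp1*, *Psap*, *Ctsb*, *Cd63*, *Lamp2*, *Ctsd* and *Grn*. At the other end, 7 of the 40 had a mean under 100, and 3 of these (*Gm2a*, *Ctsh* and *Ctsf*) had a mean under 1. Together the 40 genes took 0.623% of all normalised counts, and *Ctsl* alone made up 22.8% of that amount.

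**Figure D1:**
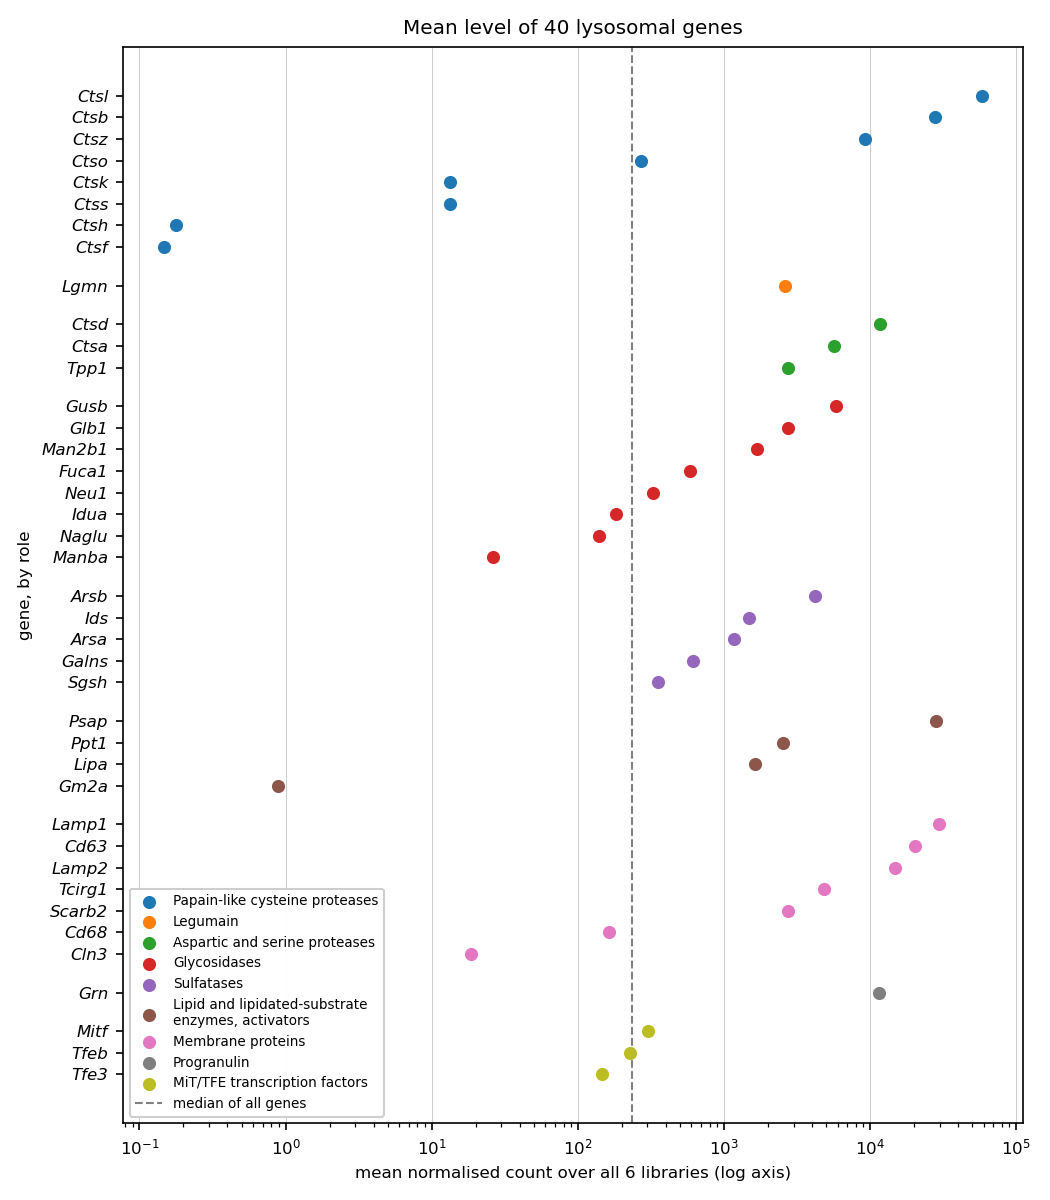
Each point is the mean normalised count over all 6 libraries of a lysosomal gene, on a log axis, with genes ordered by role and by level within a role; the dashed line is the median of all 19078 genes, 237. The papain-like cysteine proteases span the widest range, from *Ctsf* at 0.147 to *Ctsl* at 58200, while the 3 transcription factors lie close to the median of all genes.

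Counts also scale with gene length, so levels of different genes were compared as level per length, the mean normalised count divided by the summed length of the merged exons and scaled to parts per 1000000 over the 16158 genes that had a length (ppm). On this scale the median of the 40 genes was 24.2 ppm, against 10.6 ppm for all genes with a length. *Lamp1* had the highest level per length, 1015.5 ppm, followed by *Psap* with 940.7 ppm and *Ctsl* with 814.3 ppm. In GENCODE M21 on GRCm38, *Lamp1* spans chr8:13159161-13175338, *Psap* chr10:60277627-60302597 and *Ctsl* chr13:64359337-64370890. *Ctsz*, *Cd63*, *Ctsd* and *Ctsb* came next, between 585.7 and 415.9 ppm.

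**Figure D2:**
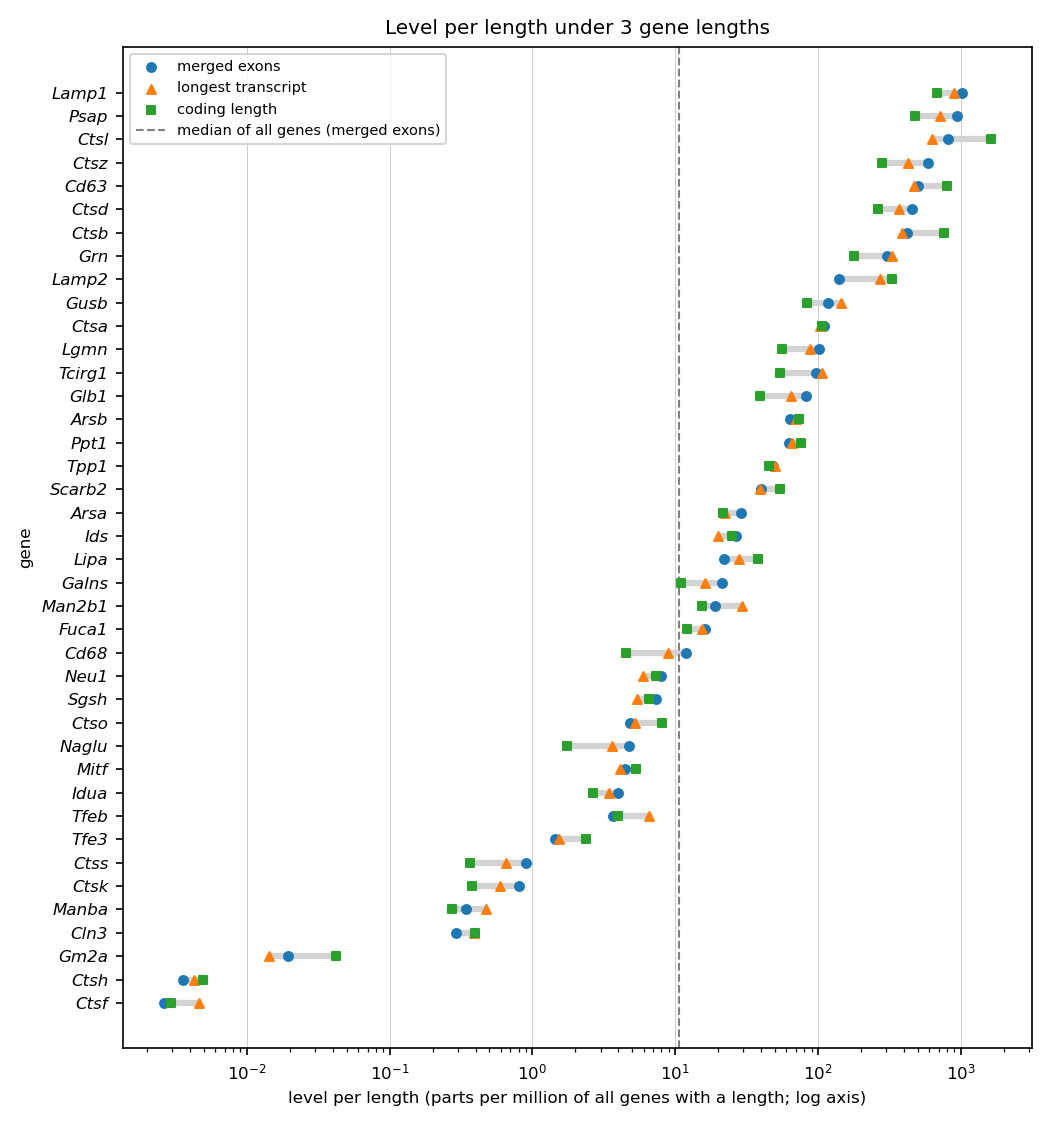
Level per length of the 40 lysosomal genes (ppm, log axis), with the length taken as the merged exons (circles), the longest transcript (triangles) or the coding sequence (squares); the dashed line is the median of all genes for merged exons, 10.6 ppm. *Lamp1* leads with merged exons at 1015.5 ppm, and *Ctsl* leads with coding length at 1613.3 ppm.

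Transcripts of the 3 transcription factors were present at moderate to low levels. *Mitf* had a mean of 303.5 normalised counts and a level of 4.45 ppm per length. *Tfeb*, which encodes the factor best known for driving lysosomal genes under starvation, had a mean of 229.7 and a level of 3.68 ppm per length. *Tfe3* had a mean of 146.3 and a level of 1.43 ppm per length, below both. Its level per length was 0.390 times that of *Tfeb* with merged exons, 0.236 times with the longest transcript and 0.595 times with the coding length. The order of *Mitf* and *Tfeb* turned with the longest transcript, where they stood at 4.13 and 6.52 ppm. All 3 lay below the median level per length of all genes. MITF is also the melanocyte factor, and 1 of 6 melanocyte markers, *Pmel*, had a value, a level of 0.474 ppm per length.

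The promoters of the lysosomal genes were then searched for the E-box CACGTG and for its extension GTCACGTGAC, the CLEAR motif described for promoters of lysosomal genes. Both strands were read, and both motifs equal their own reverse complement. The windows were RefSeq promoters on GRCm38.p6, from 250 bases before to 50 bases after each start site, and 38 of the 41 genes had at least 1 window (49 windows). No window was at hand for *Ctsb*, *Ctsh* and *Galns*. The full motif occurred in 1 of the 38 genes, *Cln3*, compared with 0.370% of all 27025 genes with a window. The 7 bases TCACGTG, which lie within the full motif, occurred in 9 of the 38 (23.7%), compared with 4.29% of all genes. The 6-base E-box, which every longer match contains, occurred in 11 of the 38 (28.9%), compared with 8.09% of all genes. Among the 12342 genes that had both a window and a mean, the shares were 0.664%, 6.17% and 10.7%. As the motif is known from promoters of lysosomal genes, these shares are a description and not a test. A match is a run of letters and not a measured binding site.

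Stretches are shown for 8 of the 9 genes with the 7 bases shared with the CLEAR motif, so that the bases around the E-box can be compared. *Ctsa*, the other gene, held E-boxes on both sides of its start site and is not printed. They are written 5′ to 3′ on the strand of the gene, with the E-box in capitals. *Lamp1* is shown first because it held 4 E-boxes, more than any other member.
Lamp1, chr8:13159095-13159160, plus strand: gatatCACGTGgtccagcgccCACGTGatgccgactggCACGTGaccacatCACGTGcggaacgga
Cln3, chr7:126583340-126583369, minus strand: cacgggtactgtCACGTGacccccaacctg
Ctsd, chr7:142387908-142387937, minus strand: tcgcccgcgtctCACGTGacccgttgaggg
Glb1, chr9:114401018-114401047, plus strand: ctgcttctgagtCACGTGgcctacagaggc
Naglu, chr11:101070009-101070038, plus strand: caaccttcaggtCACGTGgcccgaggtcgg
Sgsh, chr11:119355522-119355551, minus strand: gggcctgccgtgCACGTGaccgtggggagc
Lgmn, chr12:102439124-102439153, minus strand: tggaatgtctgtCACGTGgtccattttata
Arsa, chr15:89477425-89477454, minus strand: cttcaactcagtgtCACGTGttgtctgctc

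In GENCODE M21 the stretches of *Lamp1* and *Glb1* lie outside the gene and that of *Lgmn* lies within the gene but in no exon. All 30 bases of the *Cln3* and *Ctsd* stretches lie in an annotated exon, as do 27 bases of the *Naglu* stretch, 15 of the *Sgsh* stretch and 1 of the *Arsa* stretch. The first bases of the 4 E-boxes of *Lamp1* stood 61, 45, 28 and 15 bases before the RefSeq start site. Of all 17 E-boxes in the windows of the 11 genes, 12 lay within 100 bases upstream of the start site, in 9 genes. *Ctsa*, *Cln3* and *Ctsd* held 2 E-boxes each.

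**Figure D3:**
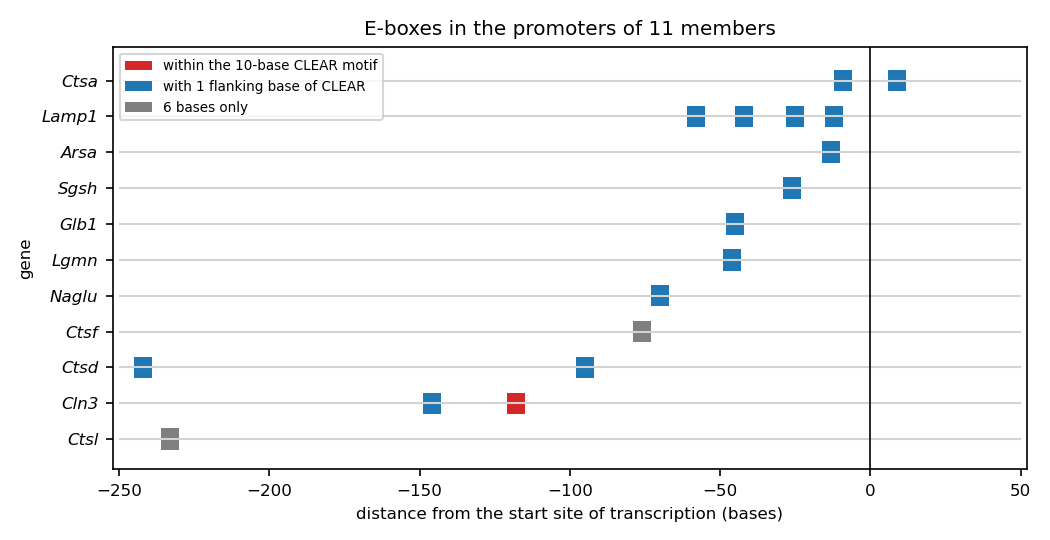
Position of each of the 17 E-boxes in the promoter windows of 11 lysosomal genes, as distance in bases from the RefSeq start site, which is drawn as a vertical line; colours show whether the E-box lies in the full CLEAR motif, has a matching flanking base or matches over 6 bases only. The 4 E-boxes of *Lamp1* lie within 100 bases upstream, and the full motif is that of *Cln3*.

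An E-box did not go with a high transcript level in each gene. *Lamp1* and *Ctsd*, printed above, had means of 29920 and 11704 normalised counts. *Cln3*, the gene with the full motif, had a mean of 18.7, and *Naglu* and *Sgsh* had means of 139.7 and 354.3. *Ctsl* and *Ctsf*, with the highest and the lowest mean of all 40 genes (58200 and 0.147), also held an E-box, of 6 bases only. The 11 genes with an E-box had a median mean of 2611.5 normalised counts and the 26 genes with a window, a mean and no E-box had 1564.6. *Psap*, *Cd63* and *Lamp2* were among the abundant genes with no E-box in their windows.

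The papain-like cysteine cathepsins fell into levels far apart from each other. *Ctsl*, which encodes an endopeptidase of broad specificity, had the highest mean of all 40 genes, 58200 normalised counts, and ranked 44 of the 19078 genes. *Ctsb*, whose product also trims dipeptides from the carboxyl end, had a mean of 27721 and ranked 174. Per length, the level of *Ctsl* was 1.96 times that of *Ctsb*. *Ctsz*, encoding a carboxypeptidase, had a mean of 9297. Its order against *Ctsb* depended on the length used, with a level per length of 585.7 ppm against 415.9 ppm for *Ctsb* with merged exons, 428.7 against 388.4 ppm with the longest transcript and 281.3 against 757.1 ppm with the coding length. *Ctso* was much lower, with a mean of 271.2 and a level of 4.81 ppm per length.

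The other 4 papain-like cathepsins with a value were low. *Ctsk*, the collagen-degrading protease of osteoclasts, had a mean of 13.4 normalised counts, which corresponds to 72 to 91 reads over the 6 libraries given the range of size factors. *Ctss*, which cleaves the invariant chain in antigen-presenting cells, had the same mean of 13.4 and the same range of 72 to 91 reads. *Ctsk* and *Ctss* are neighbours on chromosome 3, with 17423 bases and 0 other protein-coding genes between them. *Ctsh*, encoding an aminopeptidase, and *Ctsf* were each represented by 1 read in 1 of the 6 libraries. In the other libraries their transcripts were not detectable at this depth.

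Markers of fibroblasts were mostly high, and markers of macrophages, osteoclasts, epithelium and endothelium were mostly low. All 12 fibroblast markers had a value, from 277.5 normalised counts for *Pdgfra* to 135155 for *Col1a2*, and 11 of the 12 reached a mean of 1000. Of 12 macrophage markers 10 had a value, with a median mean of 8.88 and a summed mean of 975.4, most of it from *Lyz2* with 533.5 and *Cd14* with 374. *Ptprc*, which encodes the pan-leukocyte protein CD45 and was picked after its value was seen, had a mean of 11.1. Of 6 osteoclast markers 5 had a value, with a median mean of 0.376 and a highest value of 2.34 for *Oscar*. Markers of epithelium (6 of 6) and endothelium (5 of 5) had median means of 0.836 and 1.36, with highest values of 10.9 for *Krt8* and 106.5 for *Cdh5*. The part of such cells in the levels of *Ctsk*, *Ctss* and *Cd68* was not tested, and in bulk RNA fewer cells of a type cannot be told apart from less RNA per cell.

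Legumain and the aspartic and serine proteases were all well expressed. *Lgmn*, an asparaginyl endopeptidase that processes cathepsins, had a mean of 2611.5 normalised counts and a level of 102.1 ppm per length. *Ctsd*, the main aspartic protease of the lysosome, had a mean of 11704 and a level of 452 ppm per length. *Ctsa*, a serine carboxypeptidase, had a mean of 5687.4 and a level of 109.5 ppm per length, so that the level per length of *Ctsd* was 4.13 times that of *Ctsa* with merged exons and 2.47 times with the coding length. *Tpp1*, which removes tripeptides from the amino end, had a mean of 2756.7 and a level of 48.5 ppm per length.

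The 8 glycosidases were lower, with a median mean of 455.3 normalised counts and a median level of 12.1 ppm per length. *Gusb*, encoding beta-glucuronidase, led with a mean of 5857.4 and a level of 116.9 ppm per length. *Glb1*, the lysosomal beta-galactosidase, followed with a mean of 2744.6 and a level of 82.8 ppm per length. *Man2b1*, an alpha-mannosidase, had a mean of 1677.6, *Fuca1*, an alpha-fucosidase, 584.9 and *Neu1*, a sialidase, 325.6. The lowest were *Idua* with 183.4, *Naglu* with 139.7 and the beta-mannosidase gene *Manba* with 26.2 normalised counts, or 140 to 178 reads over all libraries.

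CTSA, GLB1 and NEU1 form a complex in which CTSA protects the other two, and their transcripts were unequal. With merged exons *Ctsa* and *Glb1* stood at 109.5 and 82.8 ppm per length, whereas *Neu1* stood at 7.92 ppm. In the same order the levels were 103.65, 65.0 and 5.98 ppm with the longest transcript. They were 107.0, 39.3 and 7.37 ppm with the coding length.

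All 5 sulfatases had means above the median of all genes. *Arsb*, which removes sulfate from dermatan sulfate, had the highest mean, 4231.7 normalised counts, and a level of 63.6 ppm per length. *Ids*, the iduronate sulfatase, had a mean of 1494.3, *Arsa*, which acts on sulfatide, 1177.8, and *Galns*, which acts on keratan sulfate and chondroitin sulfate, 617.2. *Sgsh*, the heparan sulfamidase, was lowest with a mean of 354.3 and a level of 7.29 ppm per length, so that the level per length of *Arsb* was 8.73 times that of *Sgsh*. Exons of *Arsb* overlap genes on the opposite strand over 39.9% of their length and those of *Sgsh* over 21.6%, and the strand setting of the counting was not given in the sources used here.

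The products of 5 of these genes act on heparan sulfate, a chain that lysosomes take apart from its end. The exoglycosidase genes *Idua* and *Naglu* stood at 3.96 and 4.77 ppm per length and *Sgsh* at 7.29 ppm, all below the median of all genes. *Ids* at 26.6 ppm and *Gusb* at 116.9 ppm stood above it. The level per length of *Gusb* was 24.5 times that of *Naglu* with merged exons, 39.95 times with the longest transcript and 47.8 times with the coding length.

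Of the 4 genes for lipid and lipid-modified substrates, 3 were well expressed. *Psap*, the precursor of the saposins that present sphingolipids to their hydrolases, had a mean of 28432 normalised counts and a level of 940.7 ppm per length. *Ppt1*, which removes palmitate from proteins, had a mean of 2523.6 and a level of 62.4 ppm per length. *Lipa*, the acid lipase that frees cholesterol and fatty acids from lipoproteins, had a mean of 1635 and a level of 21.9 ppm per length. *Gm2a*, which encodes the activator that presents GM2 ganglioside for breakdown, was represented by 5 reads in 3 libraries, a mean of 0.882.

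Of the 7 membrane proteins, 5 had a mean of at least 1000 normalised counts. *Lamp1* and *Lamp2*, the main glycoproteins of the lysosomal membrane, had means of 29920 and 14778. *Lamp2* is known for alternative last exons, and the ratio of these genes depended on the length used. The level per length of *Lamp1* was 7.23 times that of *Lamp2* with merged exons, where *Lamp2* stood at 140.5 ppm, and 2.07 times with the coding length. *Lamp2* stood at 272.4 ppm with the longest transcript. *Cd63*, a tetraspanin of late endosomes and lysosomes, had a mean of 20411 and a level of 503.3 ppm per length. *Scarb2*, the receptor that carries glucocerebrosidase to the lysosome, had a mean of 2769.1 and ranked 18 of the 40 genes in level per length. *Tcirg1*, which encodes a membrane subunit of the proton pump known for its role in osteoclasts, had a mean of 4886.5 and a level of 96.4 ppm per length.

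The remaining 2 membrane proteins had means below the median of all genes. *Cd68*, a LAMP family member used as a macrophage marker, had a mean of 164.2 normalised counts. Its level per length was 11.9 ppm with merged exons, slightly above the median of all genes, 10.6 ppm. *Cd68* stood at 8.87 ppm with the longest transcript and 4.54 ppm with the coding length, below the medians for those lengths. The level per length of *Cd63* was 42.4 times that of *Cd68* with merged exons. This ratio was 52.8 with the longest transcript and 175 with the coding length. *Cln3*, mutated in juvenile neuronal ceroid lipofuscinosis, had a mean of 18.7, or 100 to 127 reads over all libraries. *Grn*, whose product progranulin is cleaved to granulins in the lysosome and binds prosaposin, had a mean of 11593 and a level of 303 ppm per length. The level per length of *Psap* was 3.10 times that of *Grn*.

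Other genes of the same pathways, taken from 5 lists, were also mostly well expressed. Of 86 listed genes 82 had a value, with a median mean of 1752.7 normalised counts and a median level of 37.3 ppm per length, and 54 of the 82 reached a mean of 1000. The 23 other lysosomal hydrolases had a median of 1237 and ranged up to 13836 for *Scpep1*, a serine carboxypeptidase, 9264 for *Gaa*, the acid alpha-glucosidase, and 8260.5 for *Asah1*, the acid ceramidase. *Ctsg* and *Ctse*, cathepsins of neutrophils and of epithelial and immune cells, had means of 0.366 and 1.78, and the heparanase gene *Hpse* had 0.151. The 15 other membrane and lumen proteins had a median of 1055.4 and were led by *Npc2*, a cholesterol carrier, with 16329.

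Most proton pump subunits were abundant. Of the 23 V-ATPase genes with a value, 16 had a mean of at least 1000 normalised counts, with *Atp6ap1* highest at 10785, *Atp6v1g1* at 6186.4 and *Atp6ap2* at 5657.6. *Atp6v0d2*, the subunit of osteoclasts and macrophages, and *Atp6v1e2* had means of 0.376 and 0.188. The 8 genes for delivery and maturation of lysosomal enzymes had a median of 2279.4, with *M6pr*, a mannose 6-phosphate receptor, at 15865 and *Gnptab*, which encodes part of the phosphotransferase that makes the tag, at 4071.2. *Sort1*, a sorting receptor independent of the tag, had a mean of 14.8. The 13 genes for regulation of TFEB and its relatives had a median of 1711.8, with *Rraga* at 2458.9 and *Rragd* at 17.3. *Rragb* was lowest, with 1 read in 1 library and a mean of 0.151, and *Rragc* had no value.

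**Figure D4:**
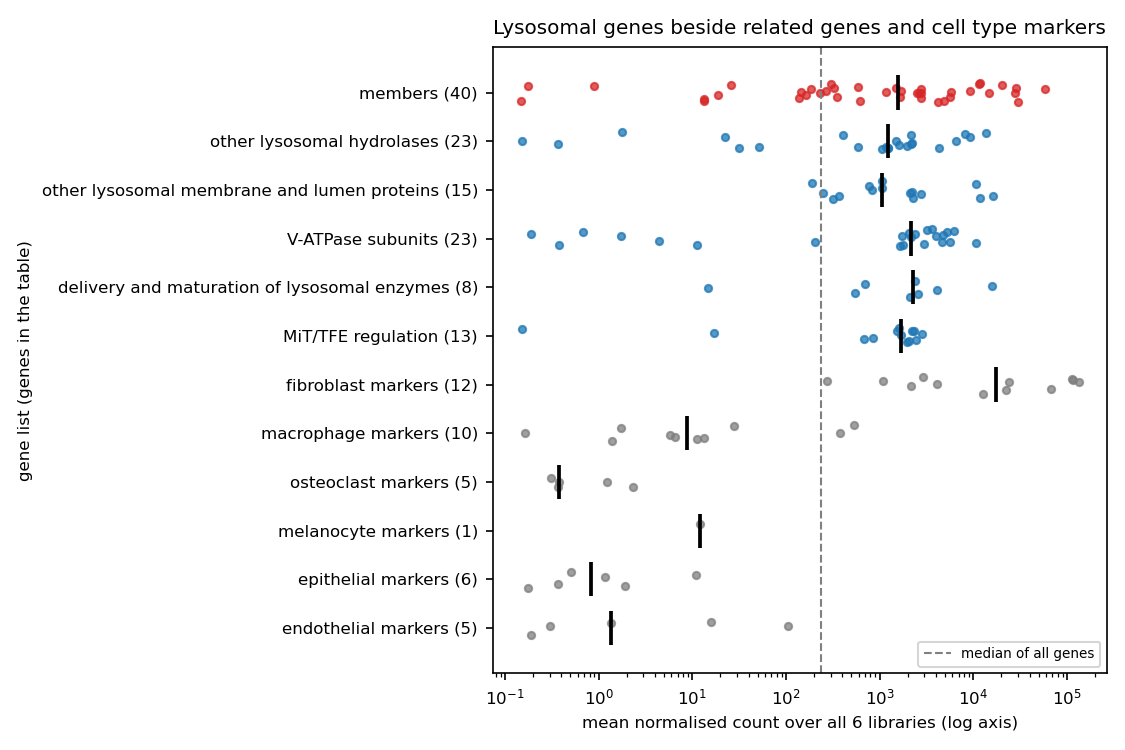
Mean normalised count over all 6 libraries (log axis) of the 40 lysosomal genes (red), 5 lists of related genes (blue) and 6 lists of cell type markers (grey); each point is a gene, black bars are list medians and the dashed line is the median of all genes, 237. The lysosomal lists have medians from 1055.4 to 2279.4 normalised counts, between the fibroblast markers at 17596 and the macrophage markers at 8.88.

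E-boxes were also found in the promoters of these related genes. A window was at hand for 64 of the 86 listed genes. Of these 64 genes 18 held the 6-base E-box (28.1%), compared with 8.09% of all genes with a window. Each of the 18 also held the 7 bases TCACGTG, found in 4.29% of all genes. The full motif occurred in 1 of the 64 (1.56%), compared with 0.370% of all genes. Among the 12342 genes with both a window and a mean, the shares were 10.7% for 6 bases, 6.17% for 7 bases and 0.664% for the full motif. The gene with the full motif was *Igf2r*, the other mannose 6-phosphate receptor, which had a mean of 2589.6 normalised counts.

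Some of these genes overlap neighbouring genes in GENCODE M21, and the effect of this on the counts, which were made on other gene models, was not tested. Exons of *Ctsd* are shared over 34.4% of their length with a gene on the same strand, and those of *Ctsl* over 6.09% on the same strand and 26.8% on the opposite strand. For *Arsa*, *Ctsa* and *Ctsb* the share on the opposite strand was 18.8%, 17.4% and 12.8%. None of the exons of *Ctsk*, *Ctss*, *Ctsf*, *Ctsh*, *Gm2a* and *Manba* overlap another gene in the annotation used. Exons of *Cln3*, the other gene with a mean under 100, are shared over 7.65% of their length on the opposite strand.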

How the data were processed

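RNA-seq libraries of 3 *Ms4a15* OE and 3 control samples were grouped by their titles. As the paper's methods state, the authors' reads were aligned with STAR to mm10 with UCSC knownGene models, counted with HTSeq-count and compared with DESeq2. The submitters' processing notes name TopHat, Cufflinks, Cuffdiff, HTSeq and DESeq2. Kit, read length and RNA extraction differ between labels and methods. The deposited table holds, per gene, a signal value made by the authors: gene counts scaled by a size factor per library and averaged over the 6 libraries. Its other columns hold the authors' own comparison (a log2 fold change between the groups with its standard error, a p-value before and after adjustment, and a direction) and were not used, so no test was run and the planned count test could not be made.

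Size factors were read from genes whose mean was under 0.2, and whole reads were accepted within 5e-08. The recovery of whole reads from known size factors was tested on simulated data, and the reading of size factors was not. Lengths came from GENCODE M21 (GRCm38, as mm10) for 16158 genes (84.7%, with 97.3% of normalised counts). The coding length was that of the annotated coding sequence. Promoters were from RefSeq (32851 windows). Python 3.11.15, numpy 2.4.6, pandas 2.3.3 and matplotlib 3.10.9 were used. All members could be named, and of each other list the 3 highest and 3 lowest genes and those at or under 1. Members and lists were chosen with earlier results of these data known.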

Additional observations from a re-analysis of the deposited data

How the results depend on the processing

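With the longest transcript as gene length, the median level per length of the 40 genes moved from 24.2 to 25.2 ppm, and with the coding length it was 23.3 ppm. Single levels moved by more than 1.5 times in 4 of 40 genes with the longest transcript (most for *Lamp2*, 1.94 times) and in 20 of 40 with the coding length (from 0.367 times for *Naglu* to 2.34 times for *Lamp2*). Of the 10 highest genes, 10 and 9 were retained, and *Ctsl* took the place of *Lamp1* as highest with the coding length. The CLEAR motif count of 1 gene became 9 with 7 bases and 11 with 6 bases. When only genes whose mean reached 10 were ranked, 22 of 37 lysosomal genes lay above the median instead of 28 of 40, and with a minimum of 100 it was 19 of 33. No paired analysis was possible because a single mean over all 6 libraries was used. For the same reason the other count model, the fit without a filter and the leave-one-out fits were not run. The spread between libraries behind each mean was not analysed here, and genes with a few reads carry a large counting error.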
